A study of Mus musculus with 15 samples.

Results

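Expression of 9 genes of creatine and arginine metabolism was followed through single microdissected proximal tubules and whole kidney of the mouse. The genes were Gatm and Gamt, which make creatine, Ckb and Ckmt1, the creatine kinases of the list, Ass1 and Asl, which make arginine, and Arg2, Agmat and Oat, which use arginine or its products. They were taken by gene symbol, and each symbol matched 1 row of the 47069 genes in the table, so all 9 were found. Rows were matched by symbol and not by measured value, but the 9 genes were chosen with earlier results of these data known.

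Creatine is made from arginine and glycine. Gatm (glycine amidinotransferase), a mitochondrial enzyme known from the renal proximal tubule, joins them to guanidinoacetate and releases ornithine. Gamt (guanidinoacetate methyltransferase), best known from the liver, then methylates guanidinoacetate with S-adenosylmethionine. Creatine kinases pass phosphate between ATP and creatine, Ckb in the cytosol and Ckmt1 in mitochondria. The proximal tubule is also known as a site where citrulline from the blood is turned into arginine by Ass1 (argininosuccinate synthase) and Asl (argininosuccinate lyase). Arg2, the mitochondrial arginase, splits arginine into urea and ornithine, and Oat (ornithine aminotransferase) moves the amino group of ornithine on towards glutamate and proline. Agmat is annotated as agmatinase, an enzyme that releases urea from agmatine.

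The tubules carried the label PTS2, which names the S2 segment, the middle of the proximal tubule between S1 and S3. There were 12 PTS2 libraries, 4 numbered tubules in each of 3 sets named m1, m2 and m3, and 3 libraries of whole kidney. Every library came from male C57BL/6 mice at 2 months of age, with no treatment, transgene or other allele named. The groups differed in the tissue taken, and with it in microdissection and input, a single tubule against whole kidney. The part of handling and input in the differences was not tested. The labels state neither what m or the tubule number stands for nor whether tubules of a set, or the whole kidney libraries, came from separate animals. The p-values below therefore measure the spread between these libraries, which may in part be technical.

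Values are TPM (transcript abundances on a fixed total), which are scaled to transcript length and can be compared between genes. Each library summed to between 999999 and 1000001, so the values keep no sequencing depth and no counting error can be given. Sums of marker genes were used to place the tubules. The S1 markers Slc2a2, Slc5a2 and Slc5a12 had a mean sum of 50.1 TPM over the tubules and 858 TPM over the whole kidney libraries, with Slc5a2 at no more than 1.38 TPM and Slc5a12 at no more than 0.23 TPM in any tubule. The S2 markers Slc22a6 and Slc22a8 summed to 653 and 757 TPM, and the S3 markers Slc7a13, Slc22a7 and Slc5a1 to 3081 and 1155 TPM. The S2 markers went apart. Slc22a6 was at 585 against 486 TPM and did not pass the limma test (adjusted p = 0.670). Slc22a8 was lower in the tubules, at 68.0 against 272 TPM (limma log2 difference -2.21, adjusted p = 0.000882). The S2 sum, which is mostly Slc22a6, thus did not set the tubules above whole kidney, whereas the S3 sum stood higher in them. Tubule 3 of set m3 stood apart, with a sum of 1441 TPM for 5 markers of the thick ascending limb, a segment further along the nephron. The other 11 tubules had at most 55.8 TPM for these markers and whole kidney 2569 ± 149 TPM (SD, n = 3). The creatine kinase results, which rest on that tubule most, are given with and without it.

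The sequence before the start site is shown for Gatm, Oat and Ckb, members far below whole kidney in the tubules, and for Gamt, the member above it. The sequences are from RefSeq (GRCm38.p6) and span the 250 bases before the RefSeq start site of each gene. All are on the minus strand and written 5′ to 3′ along the gene. For Gatm this start site lies inside the gene as placed by GENCODE (chr2:122594467-122611303), so the end of its window overlaps the gene. Of the 9 members, 7 had an entry, and Arg2 and Asl had none. Capitals mark matches on either strand to 4 motifs: TATAAA, the TATA box; CCAAT, the CCAAT box; GTTAAT, part of the recognition sequence of the tubule factor HNF1; and CAAAGTCCA, that of HNF4. No motif overlaps another in these 4 sequences.

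Gatm, chr2:122611278-122611527: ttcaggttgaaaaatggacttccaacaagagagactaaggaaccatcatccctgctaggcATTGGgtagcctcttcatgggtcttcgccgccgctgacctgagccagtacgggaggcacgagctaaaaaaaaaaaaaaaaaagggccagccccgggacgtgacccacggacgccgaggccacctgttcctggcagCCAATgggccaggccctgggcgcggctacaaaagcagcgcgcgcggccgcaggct

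Oat, chr7:132576399-132576648: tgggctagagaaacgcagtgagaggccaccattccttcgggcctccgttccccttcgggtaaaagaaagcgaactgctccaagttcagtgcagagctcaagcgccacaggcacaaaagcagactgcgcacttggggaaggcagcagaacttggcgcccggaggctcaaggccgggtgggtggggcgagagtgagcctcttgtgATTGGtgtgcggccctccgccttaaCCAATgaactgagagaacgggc

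Ckb, chr12:111672339-111672588: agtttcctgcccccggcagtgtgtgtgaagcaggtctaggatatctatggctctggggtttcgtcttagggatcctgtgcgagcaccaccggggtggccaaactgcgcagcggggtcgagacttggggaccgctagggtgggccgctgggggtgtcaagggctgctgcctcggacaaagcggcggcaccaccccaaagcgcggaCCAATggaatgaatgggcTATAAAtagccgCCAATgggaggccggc

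Gamt, chr10:80261013-80261262: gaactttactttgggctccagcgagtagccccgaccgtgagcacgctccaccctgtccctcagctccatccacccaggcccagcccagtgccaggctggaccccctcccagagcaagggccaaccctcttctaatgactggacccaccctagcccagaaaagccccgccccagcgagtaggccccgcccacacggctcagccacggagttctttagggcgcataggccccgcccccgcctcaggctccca

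Gatm held CCAAT 55 bases before the start and, on the other strand, 190 bases before it. Oat held CCAAT at 22 bases and, on the other strand, at 47 bases before the start. Ckb held TATAAA at 28 bases and CCAAT at 16 and 46 bases before the start. None of the 4 motifs was found in the Gamt window. Among 32851 RefSeq windows of this length, 33.8% held CCAAT, 12.4% TATAAA, 6.43% GTTAAT and 0.384% CAAAGTCCA. A match describes the letters only, and binding was not measured.

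Of the 9 members, 6 were lower and 1 was higher in PTS2 than in whole kidney (limma on log2(TPM + 1), adjusted p under 0.05), and Arg2 and Agmat did not pass the test. Over all 12039 genes tested, 51.2% were called, 41.5% lower and 9.68% higher. Both Ass1 and Asl were about 1 log2 unit lower, while Gatm, Oat, Ckb and Ckmt1 were lower by more than 4. A called log2 difference below -1 was thus found in 6 members and in 13.8% of all genes. After median-of-ratios scaling Ass1 was at -0.79 and Asl at -0.82, which leaves 4 members below -1. The members' median log2 difference was -1.08, and that of all genes tested was -0.27. In 6 members every PTS2 library lay below every whole kidney library, in 0 every PTS2 library lay above, and in 3 the groups overlapped. Over all genes tested, 32% lay wholly below and 5.76% wholly above. Of all calls, 18.9% were higher in PTS2. After median-of-ratios scaling and quantile normalization that share was 47.1% and 64.7%, and the median of all genes moved to -0.03 and 0.16, so levels are read relative to it. In bulk libraries, fewer cells of a type and less RNA per cell cannot be told apart.

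**Figure D1:**
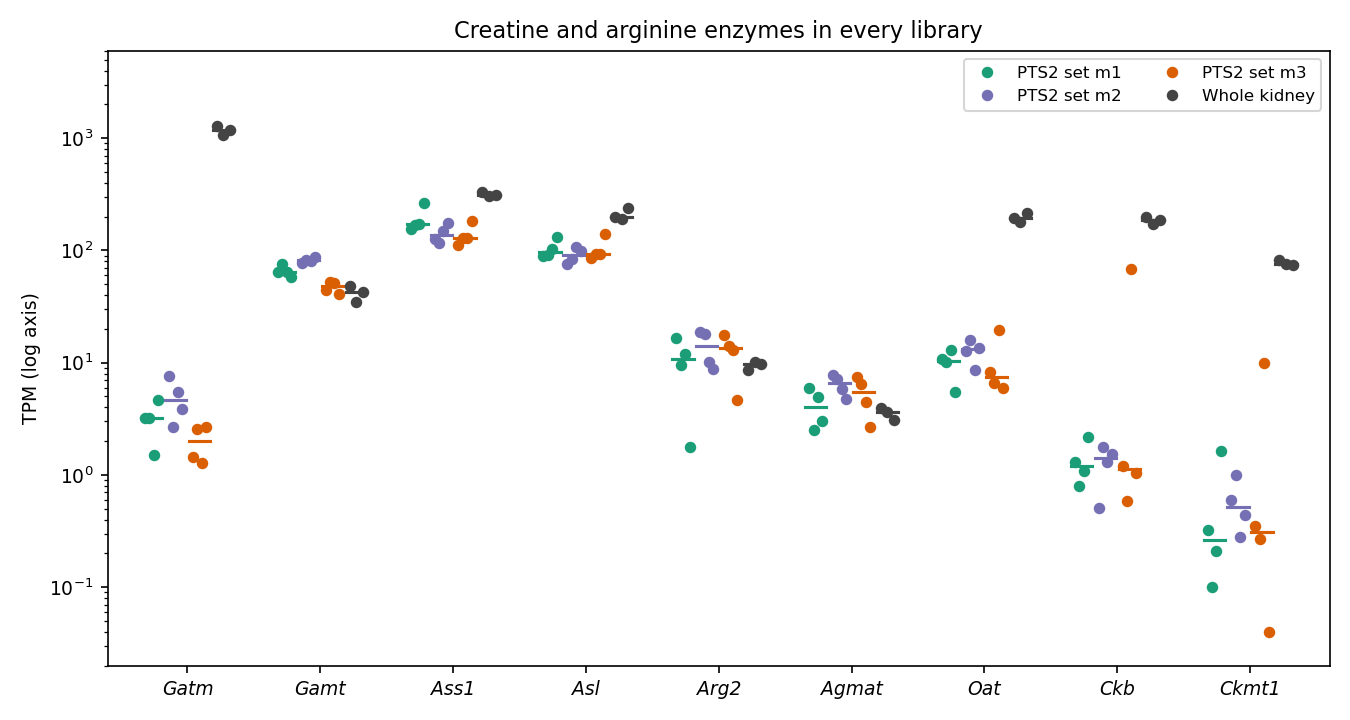
TPM of the 9 genes in every library, on a log axis. Points are single libraries coloured by set (m1, m2, m3) or as whole kidney, and short lines are group medians. Gatm spans 1.27 to 7.56 TPM in the tubules against 1063 to 1290.4 TPM in whole kidney, and 1 tubule of set m3 lies far above the others in Ckb and Ckmt1.

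The 2 enzymes of creatine synthesis went in opposite directions. Gatm (ENSMUSG00000027199, chr2:122594467-122611303, GRCm38, minus strand) was at 3.20, 3.22, 1.49 and 4.63 TPM in tubules 1 to 4 of set m1. It was at 7.56, 2.69, 5.46 and 3.90 TPM in set m2 and at 1.44, 2.54, 1.27 and 2.69 TPM in set m3. The whole kidney libraries had 1290.4, 1063 and 1189 TPM. No tubule came near whole kidney, where Gatm ranked 99 among all genes by mean TPM, against 9013 in PTS2. The tubules averaged 3.34 ± 1.84 TPM (SD, n = 12) and the whole kidney libraries 1181 ± 114 TPM (SD, n = 3), which puts PTS2 at 0.283% of whole kidney. The log2 difference was -8.19 ± 0.31 (SE), with a limma adjusted p of 1.25e-12.

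Gamt (ENSMUSG00000020150, chr10:80258151-80261012, minus strand) was at 63.8, 76.4, 64.6 and 57.8 TPM in set m1. Set m2 had 77.4, 82.2, 81.2 and 87.4 TPM, and set m3 had 44.6, 52.3, 51.6 and 40.9 TPM. The whole kidney libraries had 48.2, 35.0 and 43.0 TPM. Every tubule of sets m1 and m2 lay above every whole kidney library, and the tubules of set m3 overlapped them. The log2 difference was 0.59 ± 0.19 (SE; limma adjusted p = 0.0176), from means of 65.0 ± 15.8 TPM (SD, n = 12) and 42.1 ± 6.64 TPM (SD, n = 3). Without whole kidney library 2 it was 0.46, with an adjusted p of 0.112, so this call rests on that library. The ratio of Gamt to Gatm was 10.2 to 43.3 across tubules and 0.0330 to 0.0374 in whole kidney.

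The creatine kinases were low in all tubules but 1. Ckb (ENSMUSG00000001270, chr12:111669361-111672338, minus strand) was at 68.6 TPM in tubule 3 of set m3, and the other 11 tubules had between 0.51 and 2.17 TPM. Whole kidney had 199, 171 and 185 TPM. Ckmt1 (ENSMUSG00000000308, chr2:121357714-121363737, plus strand) was at 9.97 TPM in the same tubule and between 0.04 and 1.63 TPM in the other 11, against 82.2, 75.3 and 74.1 TPM in whole kidney. Both genes were lower in every tubule than in every whole kidney library, the outlying tubule included. The log2 difference was -6.01 ± 0.81 (SE; limma adjusted p = 1.14e-05) for Ckb and -5.53 ± 0.52 (SE; adjusted p = 1.49e-07) for Ckmt1.

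Leaving out tubule 3 of set m3 moved the PTS2 mean of Ckb from 6.83 ± 19.5 TPM (SD, n = 12) to 1.21 ± 0.495 TPM (SD, n = 11). The PTS2 mean was then 153-fold below whole kidney in place of 27.1-fold. For Ckmt1 the mean moved from 1.27 ± 2.78 to 0.476 ± 0.463 TPM, and the ratio from 60.9-fold to 162-fold. The log2 differences without this tubule were -6.43 (limma adjusted p = 1.38e-13) and -5.78 (adjusted p = 3.73e-12). At 0.476 TPM in PTS2, Ckmt1 was then under the filter of 1 TPM, which uses the mean over both groups. It was tested without this tubule only because whole kidney was high, so that p-value adds no support. Each of the 5 markers of the thick ascending limb was also highest in this tubule. As a share of the whole kidney mean, it held 62.2% for Umod, 55.6% for Cldn16, 45.2% for Slc12a1, 23.6% for Ptger3 and 18.3% for Kcnj1. The corresponding shares were 37.1% for Ckb and 12.9% for Ckmt1, and in the other 11 tubules at most 1.17% and 2.11%. The part of these cells in the Ckb and Ckmt1 values was not tested. Gatm in the same tubule was at 0.108% of whole kidney, the lowest of the 12.

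**Figure D2:**
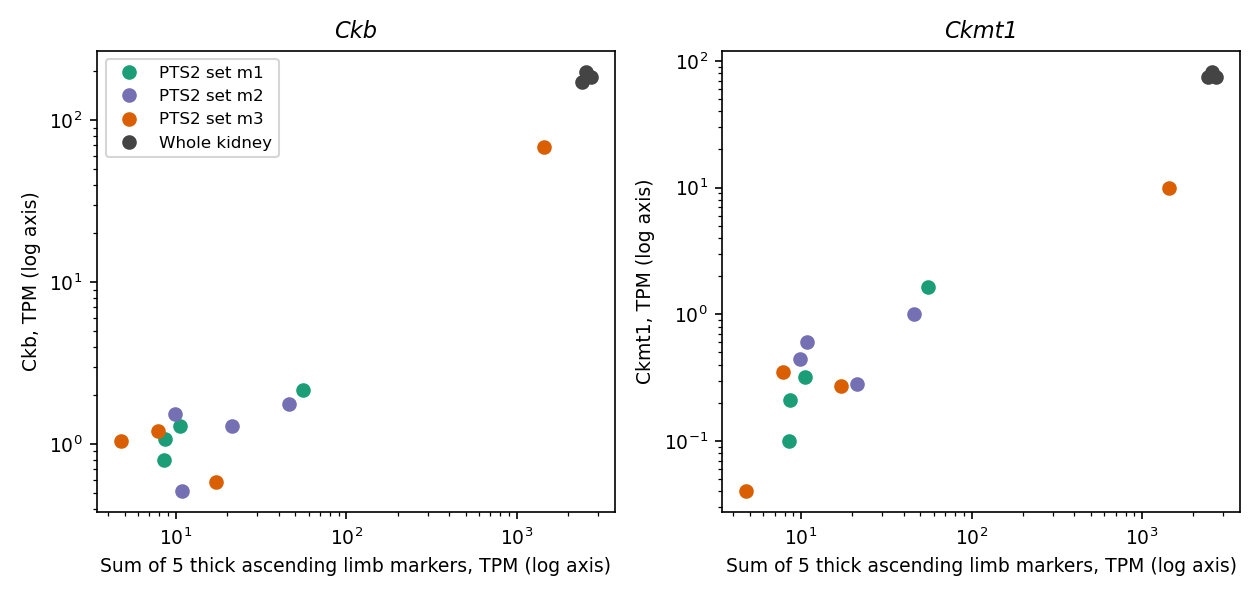
Ckb and Ckmt1 (TPM, log axis) against the summed TPM of 5 thick ascending limb markers (log axis), with 1 point per library coloured by set or as whole kidney. Tubule 3 of set m3, at a marker sum of 1441 TPM, lies between the other tubules and whole kidney for both genes.

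Across the 12 tubules Ckmt1 and the thick ascending limb sum varied together, on the scale of log2(TPM + 1). Without tubule 3 of set m3 Pearson's r was 0.85 for Ckmt1 and 0.57 for Ckb, and r between Ckb and Ckmt1 was 0.61. These values lie mostly under 2 TPM and are given as a description.

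Ass1 and Asl, the enzymes that turn citrulline into arginine, were the most abundant members in PTS2 and lay at about 50% of whole kidney. Ass1 (ENSMUSG00000076441, chr2:31470207-31520672, plus strand) ranged from 111 TPM through a median of 153 TPM to 266 TPM in the tubules. Whole kidney had 330, 308 and 314 TPM. Asl (ENSMUSG00000025533, chr5:130011258-130029247, minus strand) ranged from 75.1 TPM through 92.3 TPM to 139 TPM, against 196, 191 and 239 TPM. The groups did not overlap for either gene. The log2 difference was -1.05 ± 0.19 (SE; limma adjusted p = 0.000233) for Ass1 and -1.08 ± 0.15 (SE; adjusted p = 1.71e-05) for Asl. PTS2 means were 49.4% and 47.4% of the whole kidney means. The ratio of Ass1 to Asl was 1.58 ± 0.248 (SD, n = 12) in tubules and 1.53 ± 0.194 (SD, n = 3) in whole kidney, which overlap.

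Among the enzymes that use arginine and ornithine, Oat was far lower in the tubules and Arg2 and Agmat were not called. Oat (ENSMUSG00000030934, chr7:132557478-132576398, minus strand) ranged from 5.53 TPM through a median of 10.4 TPM to 19.6 TPM in PTS2. Whole kidney had 194, 179 and 214 TPM, so the groups were far apart. The log2 difference was -4.13 ± 0.29 (SE; limma adjusted p = 4.39e-09), and PTS2 held 5.55% of the whole kidney mean. The highest tubule was again tubule 3 of set m3, at 10.0% of whole kidney, with at most 8.09% in the others.

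Arg2 (ENSMUSG00000021125, chr12:79130777-79156301, plus strand) ranged from 1.79 TPM through 12.5 TPM to 18.8 TPM in PTS2, against 8.68, 10.2 and 9.81 TPM in whole kidney. The tubules thus lay on both sides of whole kidney. The log2 difference was 0.14 ± 0.46 (SE; limma adjusted p = 0.810), a spread wide enough that it does not show equal levels. Of the 1428 exonic bases of Arg2, 285 are shared with Vti1b on the opposite strand, whose PTS2 mean was 164 TPM and whole kidney mean 173 TPM. The sources used here do not say that counting used strand, so reads from that stretch cannot be assigned to either gene. The 12 tubules ranged from 151 to 197 TPM for Vti1b, a narrower relative range than that of Arg2.

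Agmat (ENSMUSG00000040706, chr4:141746672-141759263, plus strand) ranged from 2.5 TPM through 5.42 TPM to 7.84 TPM in PTS2, against 3.94, 3.63 and 3.11 TPM in whole kidney. The groups overlapped, and the log2 difference was 0.40 ± 0.27 (SE; limma adjusted p = 0.222). After quantile normalization it was 1.19, with an adjusted p of 0.000538. No member changed direction under median-of-ratios scaling or quantile normalization. The ratio of Arg2 to Oat was 1.16 ± 0.575 (SD, n = 12) in tubules and 0.0491 in the mean of whole kidney.

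**Figure D3:**
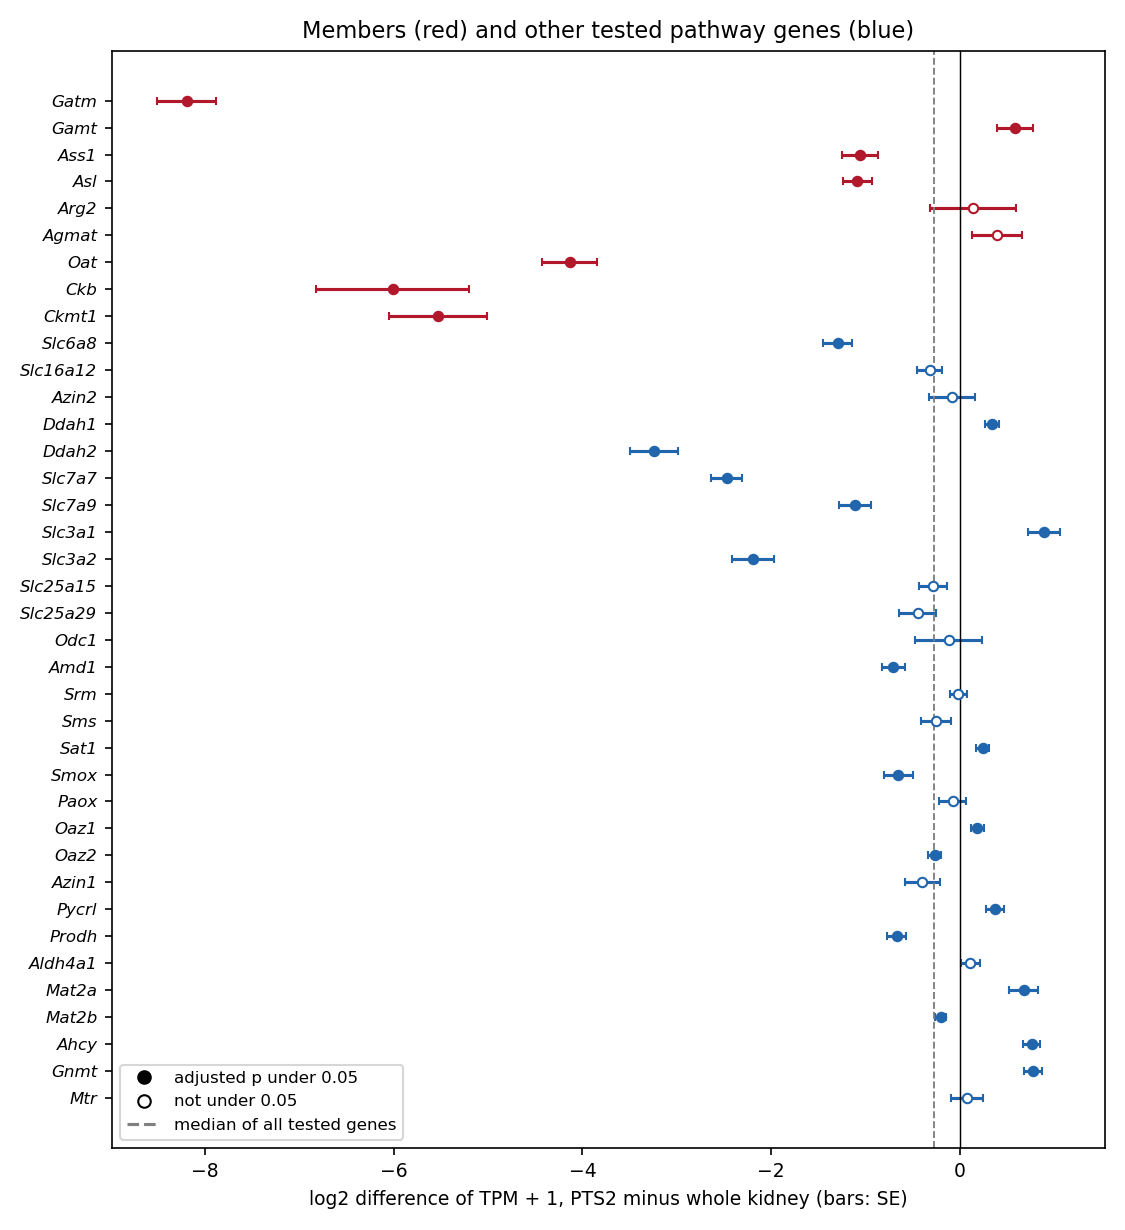
Log2 difference of PTS2 minus whole kidney with its SE, on the scale of log2(TPM + 1), for the 9 members (red) and 29 other genes of the pathway (blue). Filled points have an adjusted p under 0.05, and the dashed line is the median of all genes at -0.27. Gatm, at -8.19, lies farthest from that line.

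The levels in PTS2 ran, by mean, from Ass1 at 157 ± 42.4 TPM through Asl at 98.9 ± 19.0 TPM and Gamt at 65.0 ± 15.8 TPM to Arg2 at 12.1 ± 5.36 TPM and Oat at 10.9 ± 4.27 TPM. Below these came Ckb, Agmat at 5.26 ± 1.85 TPM, Gatm and Ckmt1 (SD, n = 12 each). The place of Ckb above Agmat and Gatm rested on tubule 3 of set m3, without which Ckb averaged 1.21 TPM, Agmat 5.34 TPM and Gatm 3.53 TPM. Arg2 and Oat overlapped over most of their range, and so did Agmat and Gatm. In whole kidney the order began with Gatm, followed by Ass1 at 317 ± 11.2 TPM, Asl at 209 ± 26.2 TPM and Oat at 196 ± 17.2 TPM (SD, n = 3 each). Asl, Oat and Ckb overlapped there, at 191 to 239, 179 to 214 and 171 to 199 TPM. Arg2 at 9.55 ± 0.777 TPM and Agmat at 3.56 ± 0.419 TPM were the lowest members of whole kidney.

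Among the 3 sets, 1 of the 9 members, Gamt, differed (limma F test, adjusted p = 0.00185), beside 3.02% of the 11300 genes tested. That test left out the tubule number. With the number as a block, Ass1 was called too (adjusted p = 0.0074), and 888 genes passed in place of 341. The Gamt means in m1, m2 and m3 were 65.6 ± 7.77, 82.1 ± 4.12 and 47.4 ± 5.51 TPM (SD, n = 4 each), and the 3 sets did not overlap. Set m3 was below m2 by a log2 difference of -0.79 ± 0.10 (SE; adjusted p = 0.000839), where 0.805% of all genes were lower. It was below m1 by -0.46 ± 0.10 (SE; adjusted p = 0.0260), where 0.938% were lower. That second call was lost without tubule 2 or 3 of m1 or tubule 1 or 4 of m3, at adjusted p of 0.0544 to 0.0922, and without a filter on low values, at 0.0703. Set m2 stood above m1 by 0.32 ± 0.10, which did not pass the test (adjusted p = 0.237), as in all but 0.54% of genes. Gatm, the enzyme that supplies the substrate of Gamt, had means of 3.14, 4.90 and 1.99 TPM in m1, m2 and m3 and was not called (adjusted p = 0.215).

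Within each set the tubules carry the numbers 1 to 4. Of the 9 members, Ass1 and Arg2 differed among numbers (limma F test with a term for the set), beside 2.71% of all genes tested. Ass1 had means of 131 ± 22.9, 138 ± 27.7, 150 ± 21.3 and 208 ± 50.5 TPM in numbers 1, 2, 3 and 4 (SD, n = 3 each; adjusted p = 0.0116). In each of the 3 sets tubule 4 had the highest Ass1, at 266, 176 and 182 TPM. Arg2 had means of 17.7 ± 1.18, 13.8 ± 4.16, 11.7 ± 1.41 and 5.09 ± 3.51 TPM (adjusted p = 0.0280), and tubule 4 was the lowest in each set, at 1.79, 8.78 and 4.69 TPM. Tubule 4 thus had the most Ass1 and the least Arg2 of its set.

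In the contrast of number 4 minus number 1, Ass1 was higher by 0.65 ± 0.09 (SE; limma adjusted p = 0.00263) and Asl by 0.55 ± 0.11 (adjusted p = 0.0170), where 1.69% of all genes were higher. Arg2 was lower, at -1.79 ± 0.29 (adjusted p = 0.00604), where 3.07% were lower. Agmat had a difference of -0.86 ± 0.23 and was not called (adjusted p = 0.0652), and its F test passed only without tubule 2 of m1 (adjusted p = 0.0372). The Asl means were 83.1, 89.0, 100.7 and 123 TPM for numbers 1 to 4, and those of Agmat were 7.07, 5.40, 5.09 and 3.50 TPM. With each library left out in turn, adjusted p of the contrast ran from 0.00162 to 0.0169 for Ass1, from 0.00296 to 0.0402 for Arg2 and from 0.00748 to 0.0922 for Asl. The Asl call was lost without tubule 1 of any set or tubule 4 of m1 or m3. Without the set term the adjusted p was 0.167 for Ass1, 0.0543 for Arg2 and 0.0761 for Asl, and without a filter it was 0.0592 for Arg2 and 0.0953 for Asl, so these calls rest on those choices.

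The F-test calls were lost under more of the alternatives. For Ass1 it was lost without tubule 4 of m1 (adjusted p = 0.0697) or tubule 4 of m3 (0.0519), without a filter on low values (0.114) and without the set term (0.347). For Arg2 it was lost without tubule 1 of any set, tubule 4 of m1 or m3, or tubule 2 or 3 of m3, at adjusted p of up to 0.104, without a filter (0.210) and without the set term (0.183). Asl had an F-test adjusted p of 0.0677, and passed at 0.0340 without tubule 3 and at 0.0456 without tubule 4 of m2, at 0.0330 with a filter at 10 TPM and at 0.0497 and 0.0426 after median-of-ratios scaling and quantile normalization.

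**Figure D4:**
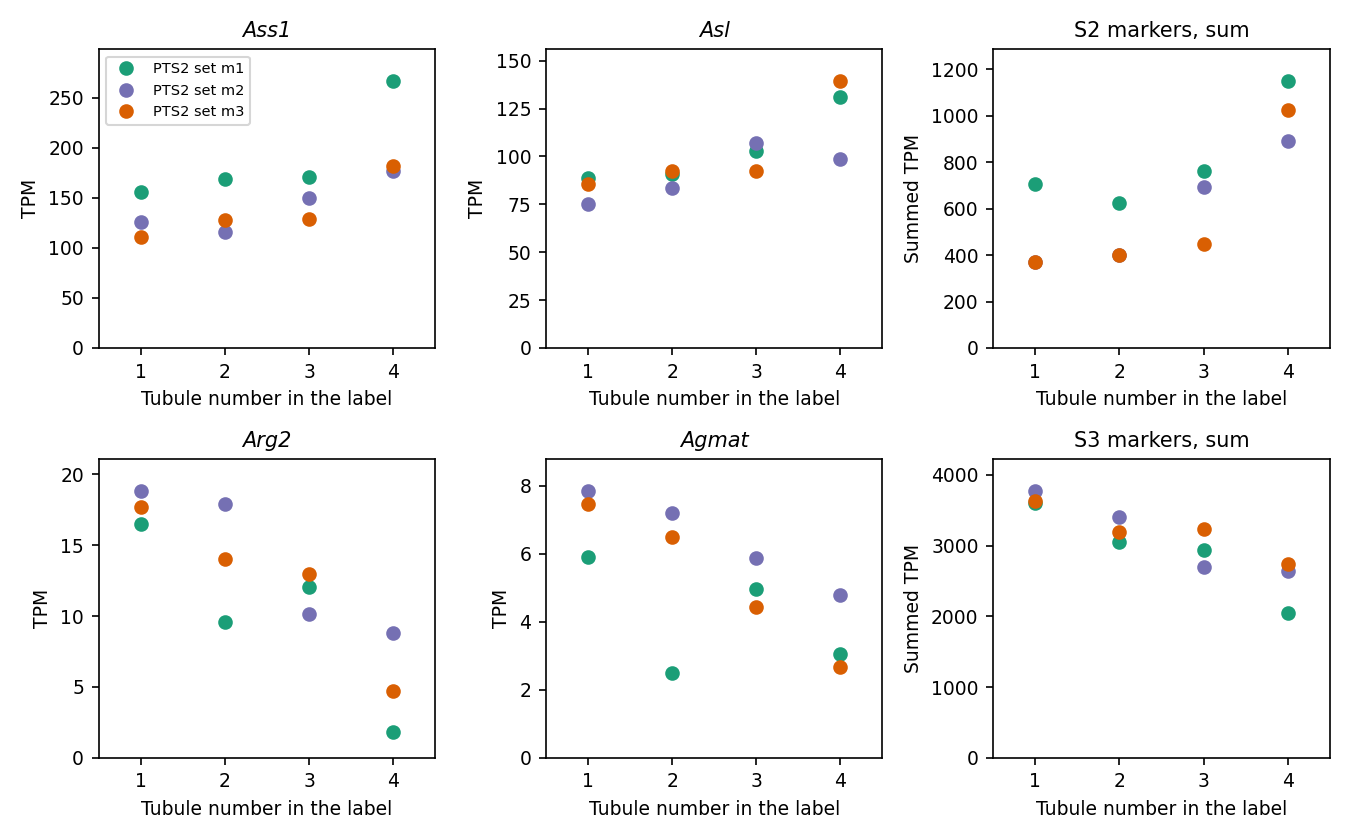
Ass1, Asl, Arg2 and Agmat (TPM) and the summed TPM of the S2 and S3 markers against the tubule number in the labels, with 1 point per tubule coloured by set. Number 4 holds the highest Ass1 and S2 sum and the lowest Arg2 and S3 sum in each of the 3 sets.

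Marker sums of the proximal segments moved with the number as well. The S2 sum had means of 481, 474, 634 and 1022 TPM in numbers 1 to 4, and the S3 sum had 3669, 3218, 2960 and 2478 TPM. The S1 sum had 43.1, 38.7, 48.0 and 70.4 TPM. Tubule 4 had the highest S1 and S2 sums and the lowest S3 sum in each set. Slc2a2 averaged 49.3 TPM of the mean S1 sum of 50.1 TPM. It was higher in number 4 than in number 1 (0.71, limma adjusted p = 0.00274). Slc5a2 and Slc5a12 did not rise, with means of 0.61 and 0.06 TPM in number 4 against 0.71 and 0.15 TPM in number 1. Both S2 markers were higher in number 4. Of the S3 markers, Slc22a7 (-1.02) and Slc7a13 (-0.31) were lower, and Slc5a1 was not called (-0.33, adjusted p = 0.197). Among the lists of other cell types, the principal cell sum (4 markers) was also highest in tubule 4 of each set, at 58.3, 27.5 and 33.5 TPM, against 8.94 to 26.8 TPM in the other tubules and 681 to 945 TPM in whole kidney. Of its 3 tested markers, Aqp3 was higher in number 4 than in number 1 (1.36, limma adjusted p = 0.00543), and Aqp2 and Fxyd4 were not called. Aqp3 averaged 18.4 TPM of the mean sum of 23.8 TPM over the tubules. Aqp2 in tubule 4 was the highest of set m1, at 6.90 TPM, but the lowest of m2 and m3, at 0.12 and 0.59 TPM. The sum thus mostly follows Aqp3. The macrophage sum (3 markers) was lowest in tubule 4 of each set, at 18.8, 28.4 and 37.6 TPM, against 29.3 to 72.2 TPM in the other tubules and 37.2 to 45.6 TPM in whole kidney. Of its 2 tested markers, Csf1r was lower (-1.16, limma adjusted p = 0.00174) and C1qa was not called. Csf1r averaged 39.1 TPM of the mean sum of 41.1 TPM over the tubules, against 21.1 TPM in whole kidney. C1qa and Adgre1 were lower in the tubules, at 1.69 against 17.0 TPM and 0.22 against 2.75 TPM. Both had their highest mean in number 4, at 2.30 and 0.32 TPM against 1.61 and 0.21 TPM in number 1. The sum thus mostly follows Csf1r. Markers of the distal convoluted tubule summed to at most 0.55 TPM in any tubule, with tubule 4 the lowest of each set. The part of the segment and of other cell types in the Ass1, Asl and Arg2 values was not tested.

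Over the 12 tubules, 72 correlations of members with each other and with marker sums were computed on log2(TPM + 1), and 19 had an adjusted p under 0.05 (permutation test, two-sided, Benjamini-Hochberg). The tubules share their sets and a fixed total, so the value within sets, from deviations from each set mean, stands beside each given here. Ass1 rose with the S2 sum at Pearson r = 0.93 (permutation p = 4e-05, adjusted p = 0.0013), Spearman rho = 0.96 and r = 0.91 within sets. Without the 2 tubules farthest from the median r was 0.94. The relation was not particular to S2. Ass1 also rose with the S1 sum at r = 0.90 (permutation adjusted p = 0.0013) and r = 0.93 within sets. It fell with the S3 sum at r = -0.87 (adjusted p = 0.00384) and r = -0.92 within sets. Arg2 went with the S3 sum at r = 0.93 (permutation p = 1e-05, the smallest the resamples allow, adjusted p = 0.00072), rho = 0.92 and r = 0.94 within sets. Without the 2 farthest tubules it was 0.92. Arg2 also fell with the S1 sum at r = -0.86 (permutation adjusted p = 0.00225) and r = -0.87 within sets. With the S2 sum it was at r = -0.83 (adjusted p = 0.0013) and r = -0.83 within sets.

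Ass1 and Asl went together at r = 0.78 (permutation p = 0.00247, adjusted p = 0.0112), rho = 0.80 and r = 0.90 within sets, and at r = 0.68 without the 2 farthest tubules. Ass1 and Arg2 went against each other at r = -0.90 (permutation p = 9e-05, adjusted p = 0.0013), rho = -0.90 and r = -0.96 within sets, and at -0.77 without the 2 farthest. Arg2 and Agmat went together at r = 0.78 (permutation p = 0.00199, adjusted p = 0.0102), rho = 0.88 and r = 0.75 within sets, and at 0.75 without the 2 farthest. Asl and Arg2 went against each other at r = -0.89 (permutation p = 0.00029, adjusted p = 0.00232), rho = -0.88 and r = -0.90 within sets, and at -0.78 without the 2 farthest.

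Other genes of these pathways were taken from lists of 44 genes, of which 29 passed the filter of a mean of 1 TPM. Of the 29, 10 were lower in PTS2, 8 were higher and 11 were not called, with a median log2 difference of -0.20 against -0.27 for all genes. Over all genes tested, 41.5% were lower and 9.68% higher, and the counts of the smaller lists below stand beside the same shares. Ckm, Ckmt2, Arg1, Otc, Cps1 and Mat1a, the muscle creatine kinases and liver-type enzymes of the lists, did not pass the filter.

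In creatine handling, 1 of 2 tested genes was lower. Slc6a8, the creatine transporter, averaged 9.97 ± 1.90 TPM (SD, n = 12) across tubules against 25.7 ± 3.92 TPM (SD, n = 3), which gave a log2 difference of -1.29 ± 0.15. Of 5 tested genes that supply, use or clear carriers of methyl groups, 3 were higher and 1 was lower. Mat2a, which makes S-adenosylmethionine, was at 916 ± 175 against 563 ± 60.9 TPM (log2 difference 0.68 ± 0.15). Gnmt, which methylates glycine, was at 131 ± 14.3 against 75.6 ± 8.86 TPM (0.78 ± 0.10), and Ahcy, which clears S-adenosylhomocysteine, at 98.1 against 57.4 TPM (0.76 ± 0.09). The lower gene was Mat2b, a regulatory subunit, at -0.20, which was 0.06 after median-of-ratios scaling.

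Of 6 tested carriers of arginine and ornithine, 3 were lower and 1 was higher. Slc7a7 and its partner chain Slc3a2, a basolateral exporter of cationic amino acids, were at 30.6 ± 7.04 against 170 ± 2.15 TPM and 60.1 ± 17.7 against 268 ± 18.4 TPM. Their log2 differences were -2.47 ± 0.17 and -2.19 ± 0.22. The subunits of the apical carrier for cystine and cationic amino acids went apart. Slc7a9 was lower, at 78.6 ± 16.7 against 168 ± 14.0 TPM (-1.11 ± 0.17), and Slc3a1 was higher, at 1179 ± 241 against 622 ± 16.4 TPM (0.89 ± 0.17). Slc25a15, the mitochondrial ornithine carrier, was at 124 against 149 TPM and was not called.

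Of 3 tested genes of the urea cycle and nitric oxide list, Ddah1 was higher and Ddah2 lower. Both break down methylated arginine. Ddah1 was at 303 ± 24.3 against 238 TPM (0.34), and Ddah2 at 0.957 ± 0.684 against 16.7 ± 1.07 TPM (-3.24 ± 0.25). With a PTS2 mean under 1 TPM, Ddah2 passed the filter only because whole kidney was high, so its lower call adds no support. Of 3 tested genes of proline and glutamate metabolism, 1 was lower and 1 was higher. Prodh, which starts proline breakdown, was at 140 against 222 TPM (-0.67).

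Of 10 tested polyamine genes, 3 were lower and 2 were higher. All 5 of these calls depended on the scaling: Sat1 and Oaz1, which were higher, had adjusted p of 0.331 and 0.735 after quantile normalization, where the lower calls of Amd1 and Smox were lost too, Smox turning from -0.65 to 0.05, and Oaz2 was at 0.00 after median-of-ratios scaling. Odc1, which makes putrescine from ornithine, averaged 800 ± 400 TPM (SD, n = 12) across tubules against 812 ± 267 TPM (SD, n = 3) and was not called (limma adjusted p = 0.801). It differed among sets, with means of 772, 473 and 1154 TPM in m1, m2 and m3 (adjusted p = 0.0438). It also differed among tubule numbers (adjusted p = 0.0102), and in number 4 minus number 1 it was higher by 0.87 ± 0.12 (adjusted p = 0.00263). Of the 28 other pathway genes tested within PTS2, 3 differed among sets, namely Odc1, Slc7a7 and Slc3a2, and 2 among numbers, namely Odc1 and Slc3a1. Over all genes tested, 3.02% differed among sets and 2.71% among numbers. Slc3a1 was lower in number 4 than in number 1, at -0.60 (adjusted p = 0.00388).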

How the data were processed

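RNA-Seq measured polyA RNA of 12 PTS2 tubules and whole kidney (3 libraries); per the labels' protocols cDNA was made with a SMART-Seq kit for very low input. The authors deposited 1 table of TPM values, read as TPM because each column has nearly the same sum; STAR 2.5.1b, RSEM 1.2.31 and GRCm38.p5 are named in the submitters' processing notes. TPM keep no depth, so no counting error or count test was possible. Means and SEs by the authors fill 4 further columns, which were left aside.

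Each library took its group from its description label. The members and gene lists were chosen with earlier results of these data known, and 1 gene of these lists is not reported here. Named beside the members are pathway genes called with a log2 difference over 1 or with a mean of at least 100 TPM. The 3 genes most alike to a member were also named, as were markers that a result turns on.

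Tests used limma 3.58.1 under R 4.3.3, with a mean-variance trend, for genes averaging 1 TPM or more, on log2(TPM + 1), which understates changes of low genes, with Benjamini-Hochberg adjustment over all genes and a threshold of 0.05. PTS2 against whole kidney used the set as a correlated block (estimated correlation 0.0669). The sets were compared by an F test and pairwise contrasts, and the tubule numbers by an F test and a contrast with the set as a term. The fits were tested on simulated data with 200 genes changed by a log2 difference of 1. Recovered were 197 against whole kidney, 184 among sets and 164 among numbers, with 12, 8 and 13 false calls. The simulated noise was independent between libraries and changed genes were lifted off low levels. It thus says nothing about likeness within sets or numbers, nor about members at low TPM. Correlations used 100000 permutations in Python 3.11.15. Gene positions and exon overlaps are from GENCODE M21 on GRCm38. Each fit was repeated with a pseudocount of 0.1, unfiltered, with a filter at 10 TPM, after median-of-ratios scaling or quantile normalization, without mitochondrially encoded genes, with the tubule number as a block or without the set term, and with each library left out in turn.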

Additional observations from a re-analysis of the deposited data

Results flagged for a closer look

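In each set of 4 tubules, the gap between the highest or lowest tubule and its nearest neighbour was set against the whole range of the set for each member. Of these 27 tests, 6 passed the 95% critical value of Dixon's test, where chance passes about 1 in 20, or 1.35 of 27. Tubule 3 of set m3 was high for 3 members. It had 68.64 TPM of Ckb beside 1.21 TPM in the next tubule, 9.97 TPM of Ckmt1 beside 0.35 TPM and 19.59 TPM of Oat beside 8.19 TPM. This is the tubule with a sum of 1441 TPM for the thick ascending limb markers, whose part in these values was not tested. Tubule 4 of set m1 was high for 2 members, with 266.49 TPM of Ass1 beside 171.3 TPM and 1.63 TPM of Ckmt1 beside 0.32 TPM. Tubule 4 of set m3 had 139.28 TPM of Asl beside 92.42 TPM.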

How the results depend on the processing

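The calls of PTS2 against whole kidney covered 7 members, and between 6 and 8 over all alternatives. Over all genes 6161 were called, with 9399 without a filter on low values (30969 tested) and 3113 under a filter at 10 TPM (6737 tested). The stricter filter removed Agmat. Among sets 341 genes were called, 196 without a filter and between 197 and 563 with each library left out in turn. Among tubule numbers 306 were called by limma, and between 75 and 507 with each library left out. Without a filter 0 were called (2871 at an unadjusted p under 0.05), and without the set term 0 (1419). The members called among numbers fell from 2 to 0 under both settings (4 and 3 unadjusted), and ranged from 0 to 3 with each library left out. With the replicate number as a block, the sets gave 888 calls in place of 341. The members called were 2 in place of 1, Ass1 joining Gamt (adjusted p = 0.0074). Against whole kidney the block changed no call of a member (6292 calls in all). The labels tie no whole kidney library to a tubule number, so the block cannot test that comparison. Libraries with the same number correlated at 0.143 on average and above 0.1 in 7 of 12 pairs, and 10 of 12 libraries correlated best with their own number. Pairs with different numbers averaged -0.048 (36 pairs), so libraries with the same number were more alike. The labels do not say what a number stands for, and the main test among sets left it out. Its calls are to be read beside those with the block. No member changed direction under these alternatives. Among the other pathway genes, a scaling turned the sign of Smox, Mat2b and Oaz2, and of Odc1, Srm, Azin2, Slc25a29, Sms and Paox, which were not called. Of the alternatives for single members, 605 kept their side of the threshold, 29 lost it and 8 gained it. These concern Gamt, Agmat, Ass1, Asl and Arg2, and the cause was not tested. Without tubule 3 of m3, Ckmt1 fell under the filter within PTS2. The unknown depth limits the members near 1 TPM most.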

Other observations

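For each member, the 3 genes most alike over the 12 tubules were taken by Pearson's r of log2(TPM + 1) among 6202 genes with a PTS2 mean of at least 10 TPM. The values describe these tubules, which share sets and a fixed total, and the highest among so many genes would show a high r in any data. Ass1 was most like Glrx, Enpp6 and Bid, each at 0.95, and Asl was most like Cyp2e1 and Ces1d, both at 0.95. Arg2 was most like Slc22a19, Slc22a13 and Apoa4, each at 0.98, and Agmat was most like Nus1 at 0.93. Gamt was most like Pxmp4 and Ucp2, both at 0.95, and Adtrp at 0.93. For Ckb these were Slc12a1 at 0.95, Egf at 0.93 and Umod at 0.92, and for Ckmt1 they were Egf at 0.98 and Slc12a1 and Umod at 0.97. Tubule 3 of set m3 is among the 12 tubules, and the likeness was not computed without it. Without it, r with the thick ascending limb sum was 0.57 for Ckb and 0.85 for Ckmt1. Gatm and Oat reached only 0.79 with Sdhc and 0.83 with Emc6.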
